A study of Rattus norvegicus with 6 samples.

Results

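The miR-15 and miR-16 family, which includes miR-195 and miR-497, is a group of microRNAs (miRNAs) that carry the same seed, the stretch of bases 2 to 8 with which a miRNA finds its target messages. Its members in the deposited table were chosen by name, as every row called miR-15b, miR-16, miR-195, miR-497 or miR-322, on either arm of the hairpin. The rule gave 10 of 842 rows, 5 of them 5p strands and 5 of them 3p strands, from 5 hairpins. Names carry the prefix rno- for the rat in the table (rno-miR-15b-5p, rno-miR-16-5p, rno-miR-195-5p, rno-miR-195-3p, rno-miR-497-5p), left out below. The name rule used no measured value, but the family was picked for description with the difference between injured and sham animals already known. All values of that contrast are therefore given as a description, with no test resting on them.

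Small RNA was sequenced from bulk orbitofrontal cortex, the part of the frontal lobe above the eyes that weighs the value of choices. The animals were male Sprague Dawley rats, an outbred stock, and adult. The injured group (n = 3) had 3 surgeries, on days 1, 4 and 7, each with a controlled cortical impact, in which a piston strikes the brain, set to 5 m/s and 2 mm deep. The sham group (n = 3) had surgery on the same days without an impact, and tissue of both groups was taken on day 42. The comparison addresses which miRNAs differ weeks after repeated mild traumatic brain injury.

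In mammals the family is known above all as a brake on cell division and survival: its 5p strands repress messages of cyclins and of the anti-apoptotic protein Bcl2, and in humans loss of miR-15a and miR-16-1 is a recurrent lesion of chronic lymphocytic leukaemia. In the mouse heart, members of the family take part in the exit of muscle cells from the cell cycle after birth. A hairpin gives a duplex of which one strand is loaded into an Argonaute protein and the other, the passenger, is mostly degraded, so the ratio of 5p to 3p reads describes which arm accumulates.

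All 10 strands had a mature sequence in RefSeq (rat build GRCr8). The 5 strands that define the family are shown 5′ to 3′ with the seed in capitals, because the seed is what they share and the remaining bases are where they differ.
miR-15b-5p: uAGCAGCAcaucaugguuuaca
miR-16-5p: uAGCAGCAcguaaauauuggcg
miR-195-5p: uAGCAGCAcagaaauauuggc
miR-497-5p: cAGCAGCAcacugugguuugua
miR-322-5p: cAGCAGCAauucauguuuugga
Among the 693 rat mature names in the RefSeq table used, these 5 had this seed. miR-15a-5p, known in humans and mice as another carrier of the same seed, is a row of the deposited table outside the name rule and was not matched to that table. Bases 2 to 8 were identical in all 5, and bases 2 to 9 in the 4 without miR-322-5p. miR-16-5p and miR-195-5p were the closest pair, with 19 of 21 positions identical and the differences G10A and U11G, given as the miR-16-5p base, the position from the 5′ end and the miR-195-5p base. miR-15b-5p matched miR-497-5p and miR-322-5p at 16 of 22 positions each and miR-16-5p at 14 of 22. The sources used here do not say how reads that fit more than 1 member were assigned, so some reads could have been split between miR-16-5p and miR-195-5p.

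The members lie in 3 genomic groups. Mir15b and Mir16 lie side by side on chromosome 2 within the span of Smc4, which encodes a subunit of the condensin complex that compacts chromosomes in mitosis. The Mir16 hairpin is at chr2:155555327-155555421 (GRCr8, plus strand). Mir497 and Mir195 neighbour each other on chromosome 10, at chr10:55450171-55450239 and chr10:55450495-55450581 on the plus strand. Mir322, whose human counterpart is called miR-424, is at chrX:137726147-137726241 on the minus strand, with Mir503, Mir351, Mir542 and the Mir450 genes within the same stretch of the X chromosome.

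The passenger strands matter below because the arms of miR-195 did not move together. The miR-195 hairpin is shown with both mature strands in capitals, 5p first.
Mir195: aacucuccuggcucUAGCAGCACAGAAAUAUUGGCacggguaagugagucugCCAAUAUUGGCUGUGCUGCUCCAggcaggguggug
Of the 5 3p strands of the family, 3 held UGCUGCU, the reverse complement of the seed, here in capitals, where the strand pairs with the seed of its 5p partner in the hairpin.
miR-15b-3p: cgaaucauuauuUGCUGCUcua
miR-16-3p: accaauauuauugUGCUGCUu
miR-195-3p: ccaauauuggcugUGCUGCUcca
The same letters were found in 5 of the 693 RefSeq rat mature names (0.722%), searched on the given strand only. The 3p strands have seeds of their own and do not belong to the family by seed.

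Libraries held 12538288 to 23680840 counted reads. Levels are given in CPM, reads per 1000000 counted reads after TMM scaling, which corrects the library totals for differences in composition. Libraries of the same group were no more alike than libraries of different groups, with a median Spearman correlation across miRNAs of 0.979 within and 0.978 between groups. A pair of libraries lay at opposite ends: of 534 miRNAs with enough reads to test, 77 (14.4%) were highest in sham replicate 3 and lowest in injured replicate 2, and 62 (11.6%) were the reverse. The 5 miRNAs of the miR-200 family, which mark epithelium, summed to 7.68, 1715 and 124.5 CPM in injured replicates 1, 2 and 3 and to 3528, 48.0 and 197.3 CPM in sham replicates 1, 2 and 3, so injured replicate 2 and sham replicate 1 also stood apart in this respect, and the part of such tissue in the values below was not tested. All 5 had log2 fold changes below 0, with a median of -1.16 and SEs of 1.42 to 1.92, and each was highest in sham replicate 1. Of the 5 neuronal markers none was absent, and their log2 fold changes were below 0 in 3 and above 0 in 2, with a median of -0.01. miR-124-3p, a miRNA of neurons, had 4139, 4192 and 5500 CPM in injured replicates 1, 2 and 3 and 4312, 4012 and 6024 CPM in sham replicates 1, 2 and 3. miR-128-3p, a more abundant neuronal marker, was highest in injured replicate 2 and lowest in sham replicate 3. Its log2 fold change was 0.30 ± 0.24 (SE). The summed level of the 5 neuronal markers had a Pearson correlation of -0.82 with the summed 5p strands of the family over the 6 libraries.

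miR-16-5p was the leading member of the family in every library. It ranked 108th of 842 rows by mean level, with 419, 261 and 396 CPM in injured replicates 1, 2 and 3 and 462, 349 and 675 CPM in sham replicates 1, 2 and 3. It gave 74.1% ± 2.1 of the reads of the 5 seed-bearing strands in injured and 73.5% ± 2.5 in sham animals (SD, n = 3 each). miR-195-5p followed, with 16.4% ± 1.7 of these reads in injured and 18.4% ± 2.0 in sham animals. Both strands together made up most of the reads with the shared seed, although ligation-based libraries capture different miRNAs with different efficiency and levels of different miRNAs are only roughly comparable.

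The order of levels was nearly fixed. After miR-16-5p and miR-195-5p came miR-322-3p, miR-195-3p, miR-322-5p, miR-497-5p, miR-15b-5p and miR-15b-3p, and the order of these 8 was the same in 5 of 6 libraries. In sham replicate 3, miR-322-5p exceeded miR-195-3p. Those neighbours had overlapping ranges, as had miR-497-5p with miR-15b-5p, although miR-497-5p was above miR-15b-5p within each of the 6 libraries. The other neighbouring pairs among these 8 had ranges across the 6 libraries that did not overlap. miR-16-3p and miR-497-3p were near the limit of detection, with 28 and 5 reads in all 6 libraries together, and were left out of the fit by the count filter.

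**Figure D1:**
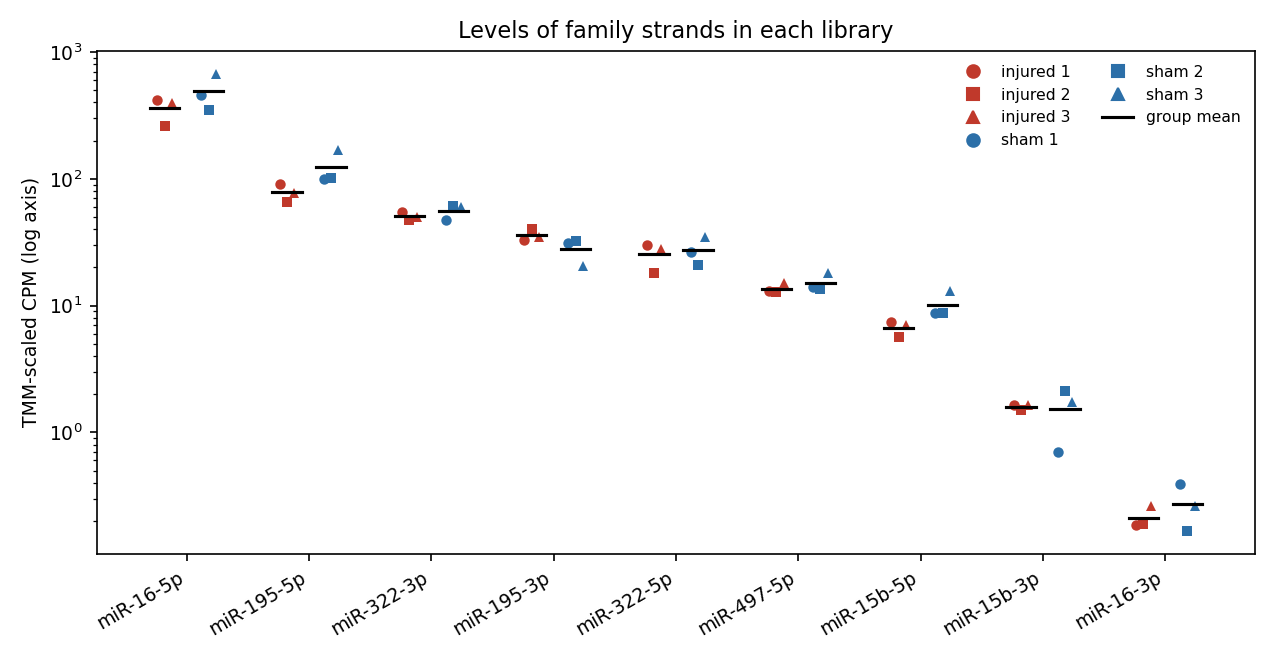
Level of 9 family strands in each library, in TMM-scaled CPM on a log axis, ordered by mean level; red symbols are injured and blue symbols sham animals, symbol shape gives the replicate, and black lines are group means (n = 3 each). miR-497-3p, with 5 reads in all, is left out, and sham replicate 3 is the highest library for each of the 5 5p strands.

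The whole family took a small share of the library that varied most with a single sham animal. Its 10 strands held 0.0626%, 0.0417% and 0.0643% of counted reads in injured replicates 1, 2 and 3, and 0.0704%, 0.0544% and 0.113% in sham replicates 1, 2 and 3. The 95% Wilson intervals reached at most 0.00147 percentage points to either side. They describe counting error alone, not the spread between animals, and treat reads as independent although no molecular identifiers were read. The group means were 0.0562% ± 0.0126 in injured and 0.0791% ± 0.0301 in sham animals (SD, n = 3 each), and the groups overlapped. The difference of -0.0229 percentage points became -0.00619 without sham replicate 3. In bulk tissue, fewer cells of a type and less RNA per cell cannot be told apart.

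Within the pair encoded in Smc4, both 5p strands had their lowest level in injured replicate 2 and their highest in sham replicate 3. miR-15b-5p had 7.40, 5.67 and 6.98 CPM in injured replicates 1, 2 and 3 and 8.68, 8.75 and 13.0 CPM in sham replicates 1, 2 and 3. Every injured library was below every sham library, and outside sham replicate 3 the values of both groups lay between 5.67 and 8.75 CPM. The log2 fold change, injured over sham, was -0.60 ± 0.24 (SE), with group means of 6.68 ± 0.90 CPM in injured and 10.1 ± 2.5 CPM in sham animals (SD, n = 3 each). miR-16-5p, whose known targets include the serotonin transporter in mouse raphe neurons, had group means of 359 ± 86 CPM in injured and 495 ± 166 CPM in sham animals. Its groups overlapped, since injured replicates 1 and 3 were above sham replicate 2, and its log2 fold change was -0.47 ± 0.29 (SE).

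The proportion between the reads of these hairpin neighbours differed less between the group means than among the libraries of either group. There were 0.0176, 0.0217 and 0.0176 reads of miR-15b-5p for each read of miR-16-5p in injured replicates 1, 2 and 3, and 0.0188, 0.0250 and 0.0192 in sham replicates 1, 2 and 3. The proportion was highest in replicate 2 of either group, and the groups overlapped. The log2 proportion averaged -5.72 ± 0.17 in injured and -5.58 ± 0.23 in sham animals (SD, n = 3 each), a difference of -0.14 that is smaller than the spread within either group. miR-15b-3p, the passenger strand, had 35, 24 and 38 reads in injured replicates 1, 2 and 3 and 9, 38 and 47 in sham replicates 1, 2 and 3, and its log2 fold change was 0.05 ± 0.40 (SE).

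Within the pair of miR-497 and miR-195, miR-195-5p had the lowest fitted fold change of the family, while its neighbour miR-497-5p differed less. miR-195-5p had 90.5, 66.1 and 77.3 CPM in injured replicates 1, 2 and 3 and 100.0, 101 and 169 CPM in sham replicates 1, 2 and 3. The groups did not overlap, but injured replicate 1 lay close to sham replicates 1 and 2, and sham replicate 3 lay far above all others. The log2 fold change was -0.66 ± 0.26 (SE), with group means of 77.9 ± 12.2 CPM in injured and 123 ± 40 CPM in sham animals (SD, n = 3 each). miR-497-5p had 13.0, 12.8 and 15.1 CPM in injured replicates 1, 2 and 3 and 13.9, 13.6 and 17.9 CPM in sham replicates 1, 2 and 3. Its groups overlapped and its log2 fold change was -0.15 ± 0.20 (SE), which became 0.005 with upper-quartile scaling. There were 6.97, 5.17 and 5.12 reads of miR-195-5p for each read of miR-497-5p in injured replicates 1, 2 and 3, and 7.18, 7.41 and 9.42 in sham replicates 1, 2 and 3. All injured libraries lay below all sham libraries, and injured replicate 1 was nearest to the sham values. The log2 ratio averaged 2.51 ± 0.25 in injured and 2.99 ± 0.21 in sham animals, a difference of -0.48, and -0.36 without sham replicate 3.

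miR-195-3p, the passenger strand of miR-195, ran opposite to its partner. It had 33.0, 40.0 and 34.5 CPM in injured replicates 1, 2 and 3 and 31.0, 32.2 and 20.5 CPM in sham replicates 1, 2 and 3. Its lowest level was in sham replicate 3 and its highest in injured replicate 2, the libraries at the other ends for miR-195-5p, and every injured library was above every sham library. The log2 fold change was 0.36 ± 0.22 (SE), with group means of 35.8 ± 3.7 CPM in injured and 27.9 ± 6.5 CPM in sham animals (SD, n = 3 each). The groups came closest at injured replicate 1, with 33.0 CPM, and sham replicate 2, with 32.2 CPM.

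The X-linked member differed little between the groups. miR-322-5p, which with miR-503 promotes cell cycle exit in mouse muscle cells, had 30.1, 18.1 and 27.9 CPM in injured replicates 1, 2 and 3 and 26.6, 21.1 and 34.5 CPM in sham replicates 1, 2 and 3. Its groups overlapped, with injured replicate 2 and sham replicate 2 lowest, and its log2 fold change of -0.11 ± 0.27 (SE) became 0.03 with upper-quartile scaling and 0.09 without sham replicate 3. miR-322-3p was the more abundant arm, with 54.3, 47.7 and 50.2 CPM in injured replicates 1, 2 and 3 and 47.2, 60.9 and 59.6 CPM in sham replicates 1, 2 and 3. Its log2 fold change was -0.14 ± 0.17 (SE), and 0.005 with upper-quartile scaling. Of the reads of the 5 seed-bearing strands, miR-322-5p gave 5.37%, 4.99% and 5.33% in injured replicates 1, 2 and 3 and 4.35%, 4.27% and 3.79% in sham replicates 1, 2 and 3. This share was higher in every injured library, although the level of miR-322-5p itself was not. The Wilson intervals of the share reached at most 0.563 percentage points to either side, and it was 1 of 5 such shares compared, of which the other 4 overlapped between groups.

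**Figure D2:**
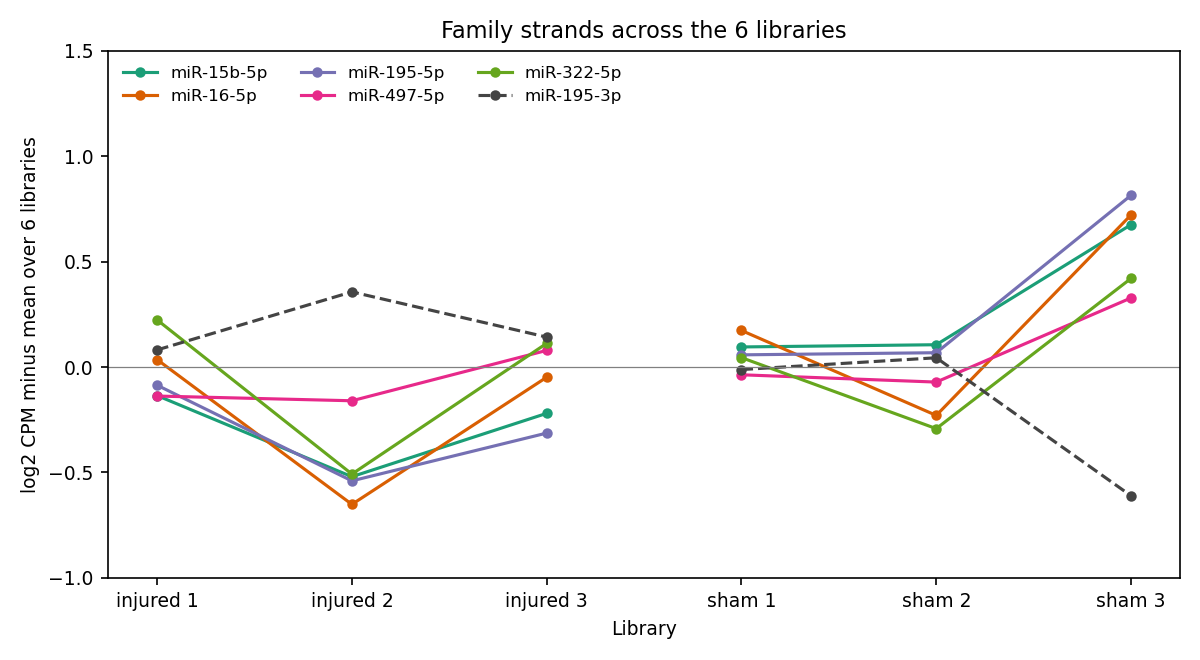
Level of the 5 seed-bearing strands (solid lines) and of miR-195-3p (dashed line) in each library, as log2 CPM minus the strand's mean over the 6 libraries; injured libraries are on the left and sham libraries on the right, and lines join libraries of a group for legibility, not as an order. The 5p strands are highest in sham replicate 3 and lowest in injured replicate 2, where miR-195-3p is lowest and highest.

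In the fit over all miRNAs no member was called. edgeR's quasi-likelihood test with Benjamini-Hochberg adjustment called 0 of 534 miRNAs (0%) at an adjusted p of 0.05, with a smallest adjusted p of 0.813, and adjusted p-values of the 8 members that passed the count filter ran from 0.878 to 0.983. Before adjustment, 12 miRNAs (2.25%) had a p under 0.05, miR-195-5p and miR-15b-5p among them. DESeq2 and limma-voom also called 0, with 19 and 15 miRNAs at an unadjusted p under 0.05. Of the 8 members, 6 had negative and 2 positive log2 fold changes, against 290 and 244 of the 534, and the median was -0.15 in the members and -0.03 over all 534. The 5 seed-bearing strands all had negative values with TMM scaling, with a median of -0.47, but those of miR-497-5p and miR-322-5p turned positive with upper-quartile scaling, which moved the median of all miRNAs to 0.12. Groups that did not overlap were found for miR-15b-5p and miR-195-5p on the lower side, where 4.87% of all miRNAs were, and for miR-195-3p on the higher side, where 3% were (7.87% on either side). Since the family was picked with this contrast known, nothing is read from these counts.

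**Figure D3:**
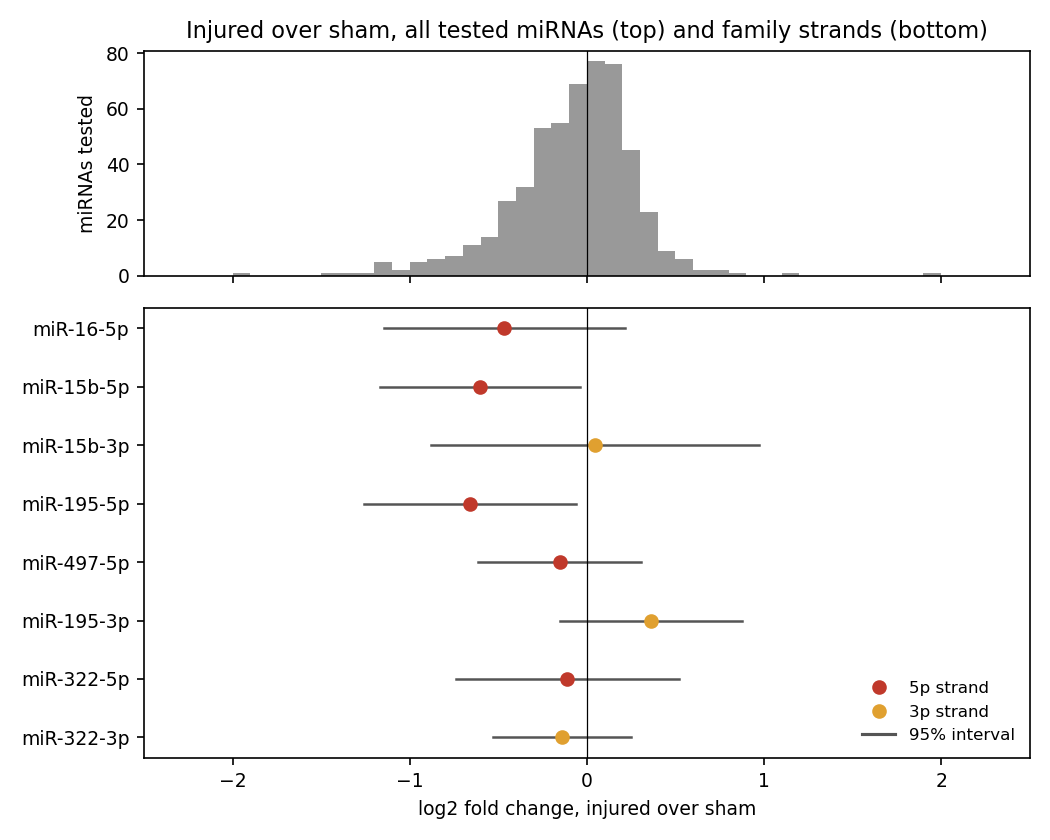
Log2 fold change, injured over sham, from edgeR with TMM scaling: the upper panel counts all tested miRNAs in steps along the same axis (1 lies beyond 2.5), and the lower panel gives 8 family strands with 95% intervals (red, 5p; yellow, 3p). The intervals of miR-15b-5p (-1.17 to -0.04) and miR-195-5p (-1.26 to -0.06) do not reach 0 before adjustment over the 534 miRNAs, and points of miR-497-5p, miR-322-5p and miR-322-3p turn positive with upper-quartile scaling.

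A single sham animal carried much of these differences. Without sham replicate 3 the log2 fold changes were -0.38 for miR-15b-5p, -0.36 for miR-195-5p, -0.18 for miR-16-5p, -0.01 for miR-497-5p and 0.18 for miR-195-3p. Without injured replicate 2 that of miR-16-5p was -0.25, and that of miR-322-5p was 0.11. Without both libraries, a setting chosen after the data were seen, miR-15b-5p and miR-195-5p had -0.28 and -0.26, miR-16-5p had 0.003 and miR-195-3p had 0.09. In the other 4 libraries miR-195-5p ranged from 77.3 to 101 CPM and miR-195-3p from 31.0 to 34.5 CPM.

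The arms of the hairpins were balanced very differently, and of the 3 hairpins with enough reads on both arms, miR-195 had the widest range of ratios between libraries. In miR-16 the 3p strand was nearly absent, with 1879 reads of miR-16-5p for each read of miR-16-3p over all libraries. In miR-497 the sums were 1734 and 5 reads. miR-497-3p had 0 reads in all 3 injured libraries and in sham replicate 1, which allows up to 0.130 to 0.235 CPM there, and 3 and 2 reads in sham replicates 2 and 3. In miR-322 the 3p strand led in every library, with 0.555, 0.380 and 0.555 reads of 5p for each read of 3p in injured replicates 1, 2 and 3 and 0.563, 0.346 and 0.579 in sham replicates 1, 2 and 3. Here replicate 2 of either group was low and the groups overlapped.

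In miR-195 there were 2.74, 1.65 and 2.24 reads of 5p for each read of 3p in injured replicates 1, 2 and 3, and 3.23, 3.13 and 8.26 in sham replicates 1, 2 and 3. All injured libraries lay below all sham libraries, and sham replicate 3 stood far above the other 5. The log2 ratio averaged 1.11 ± 0.37 in injured and 2.13 ± 0.80 in sham animals (SD, n = 3 each). The difference was -1.01 ± 0.40 (SE), the second lowest of 153 hairpins with enough reads on both arms, and became -0.55 without sham replicate 3. The range of 2.32 log2 units over the 6 libraries was larger than or equal to that of 96.7% of the hairpins, whose median range was 0.94. The ratio was highest in sham replicate 3 and lowest in injured replicate 2 in 20 of the 153 hairpins, miR-195 among them. In limma's fit over the 153 hairpins 0 were called (0%), with 5 at an unadjusted p under 0.05 and a smallest adjusted p of 0.845. The ratio was lower without overlap between groups in 3 hairpins (1.96%), miR-195 among them, and higher without overlap in 2 (1.31%).

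In miR-15b there were 4.54, 3.75 and 4.24 reads of 5p for each read of 3p in injured replicates 1, 2 and 3, and 12.3, 4.13 and 7.43 in sham replicates 1, 2 and 3. The injured libraries lay close together, while the sham libraries were spread widely and overlapped with them. The log2 ratio averaged 2.04 ± 0.14 in injured and 2.82 ± 0.76 in sham animals (SD, n = 3 each), a difference of -0.78 ± 0.37 (SE). It became -0.42 without sham replicate 1, whose ratio rests on 9 reads of miR-15b-3p, and -1.18 without sham replicate 2. The difference for miR-322 was 0.02 ± 0.30 (SE), near the median of 0.02 over the 153 hairpins.

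**Figure D4:**
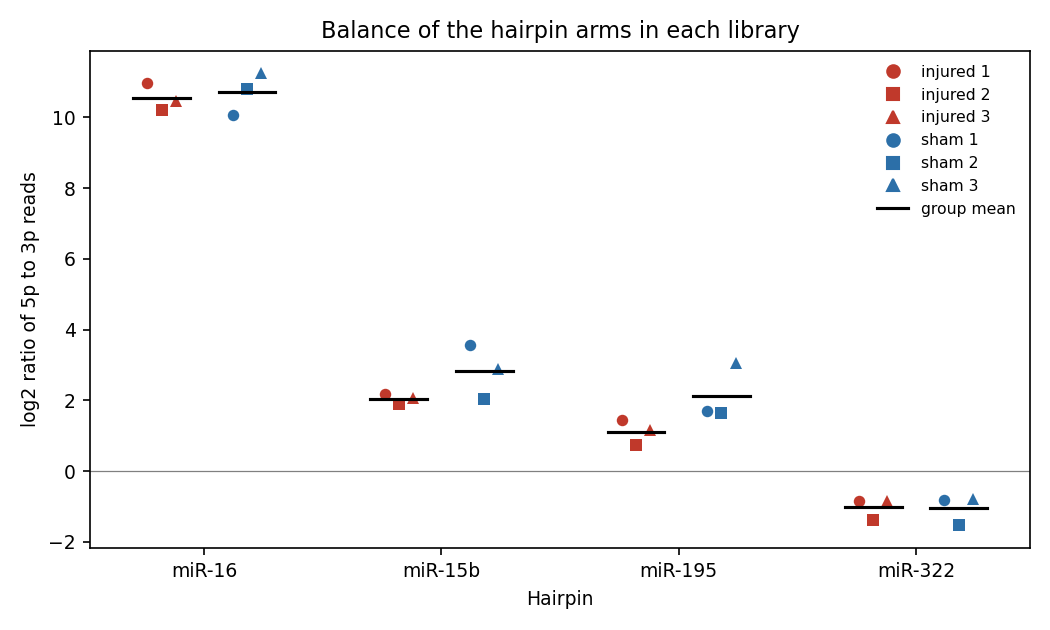
Log2 ratio of 5p to 3p reads in each library for 4 hairpins, with a pseudocount of 0.5; red symbols are injured and blue symbols sham animals, symbol shape gives the replicate, and black lines are group means (n = 3 each). miR-322 is below 0 in all libraries, and for miR-195 the injured libraries lie between 0.72 and 1.45 and the sham libraries between 1.64 and 3.04.

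The seed-bearing strands shared their highest and their lowest library, whatever their genomic group, and their order over all 6 libraries was less alike. Pearson correlations of log2 CPM over the 6 libraries ranged from 0.68 to 0.99 over the 10 pairs of 5p strands, with a median of 0.82. The highest, 0.99, was between miR-15b-5p and miR-195-5p, which lie on different chromosomes, and their order across the 6 libraries was the same (Spearman 1). Both neighbours in the genome were lower, at 0.90 for miR-15b-5p with miR-16-5p and 0.80 for miR-195-5p with miR-497-5p. Their Spearman correlations were 0.66 and 0.60. The lowest Spearman correlation among the 10 pairs was 0.49, for miR-15b-5p and for miR-195-5p with miR-322-5p. miR-195-3p had -0.98 with miR-195-5p. These 6 points share library, scaling and the ends set by sham replicate 3 and injured replicate 2, and are given as a description.

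Many miRNAs outside the family had the same profile. Of 501 other miRNAs compared, 37 had a Pearson correlation above 0.9 with the summed 5p strands of the family, over the 6 libraries, and the median was 0.16. The closest were miR-361-5p (0.996), miR-34c-3p (0.99), miR-664-3p (0.99), miR-30b-5p (0.99) and let-7c-5p (0.98). miR-361-5p had 121, 84.0 and 109 CPM in injured replicates 1, 2 and 3 and 123, 109 and 171 CPM in sham replicates 1, 2 and 3, with injured replicate 2 lowest and sham replicate 3 highest as in the family. miR-30b-5p had 329, 211 and 281 CPM in injured replicates 1, 2 and 3 and 379, 288 and 667 CPM in sham replicates 1, 2 and 3. For single strands the closest were miR-129-1-3p for miR-15b-5p (0.98) and for miR-195-5p (0.99), let-7c-5p for miR-16-5p (0.99), let-7f-1-3p for miR-497-5p (0.99) and miR-154-5p for miR-322-5p (0.97). The counts of miR-129-1-3p equalled those of miR-129-2-3p in every library, so this match stands for both names.

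Related hairpins had fitted fold changes nearer to 0 than miR-195-5p and miR-15b-5p, a difference that was not tested. The list held 8 rows, both arms of miR-103, miR-107 and miR-503 and the 5p strand of miR-15a, and so includes partner strands whose own seeds are unrelated to the family's. Of these, 4 passed the count filter, with log2 fold changes below 0 in 3 and above 0 in 1, 0 called and a median of -0.06. The value above 0 was that of miR-503-3p, a partner strand with an unrelated seed. The other 3 are shown with their seeds in capitals, since each seed is the family's shifted or changed by a base.
miR-103-3p: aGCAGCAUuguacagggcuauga
miR-107-3p: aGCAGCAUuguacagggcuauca
miR-503-5p: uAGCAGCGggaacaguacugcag
miR-103-3p, far more abundant than the family, had 4014, 3079 and 4020 CPM in injured replicates 1, 2 and 3 and 3903, 3634 and 5717 CPM in sham replicates 1, 2 and 3. Its extremes were again injured replicate 2 and sham replicate 3, and its log2 fold change was -0.25 ± 0.21 (SE). The log2 fold changes of miR-107-3p, miR-503-5p and miR-503-3p were -0.003 ± 0.255, -0.12 ± 0.20 and 0.18 ± 0.27. miR-15a-5p, which in humans is transcribed with a second copy of miR-16, carries the family's own seed there and had a single read in all 6 libraries.

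Members of the family are also found in other cell types, so levels of marker miRNAs of such cells, none of them members, are given. In bulk tissue these are levels of the markers, not numbers of cells. miR-16-5p and miR-15b-5p are plentiful in red blood cells. The erythrocyte list (miR-451-5p, miR-144-5p, miR-144-3p and miR-363-3p) had log2 fold changes below 0 in 3 rows and above 0 in 1, and a median of -0.74. Its summed level was 25.1 to 44.0 CPM in injured and 52.4 to 93.8 CPM in sham animals. miR-451-5p, the leading miRNA of red blood cells, had 18.6, 34.6 and 23.4 CPM in injured replicates 1, 2 and 3 and 43.2, 79.0 and 47.7 CPM in sham replicates 1, 2 and 3. It was lower in every injured library, as miR-15b-5p and miR-195-5p were, and as 4.87% of all tested miRNAs were. Its highest library was sham replicate 2 and its lowest was injured replicate 1. The Pearson correlation of this list with the summed 5p strands, most of them miR-16-5p, was 0.07 over the 6 libraries. The part of red blood cells in the values of miR-15b-5p and miR-195-5p was not tested.

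Markers of vessels and of myeloid cells were read in the same way. The 11 endothelial and mural rows had log2 fold changes below 0 in 7 and above 0 in 4, and a median of -0.06. Their sum, led by miR-143-3p, was 29064 to 47205 CPM in injured and 24948 to 36916 CPM in sham animals. The Pearson correlation of this sum, most of it miR-143-3p, with the summed 5p strands was -0.93, with sham replicate 3 lowest. Groups overlapped for miR-126a-3p, miR-126a-5p, miR-145-5p and miR-10b-5p, with log2 fold changes of -0.01, -0.11, -0.06 and -0.10. They also overlapped for miR-143-3p, miR-143-5p, miR-145-3p and miR-10a-5p, at 0.28, 0.11, 0.21 and 0.46. Of the 11 rows, 3 were lower in every injured than in any sham library, as 4.87% of all tested miRNAs were: miR-214-3p, miR-199a-3p and miR-199a-5p. Their log2 fold changes, from only 184 reads in all for miR-214-3p, were -1.94 ± 0.39, -0.49 ± 0.20 and -0.34 ± 0.22 (SE). miR-214-3p and miR-199a-3p were highest in sham replicate 3, as the 5p strands of the family were, and lowest in injured replicate 3. All 6 tested myeloid rows had negative log2 fold changes, with a median of -0.32, and their sum was 455 to 511 CPM in injured and 436 to 779 CPM in sham animals. That sum, most of it miR-150-5p, which is not particular to myeloid cells, had a correlation of 0.90 with the summed 5p strands. Like miR-150-5p itself, it was highest in sham replicate 3 and lowest in sham replicate 2. miR-223-3p, with 198 reads in all, had 1.58, 0.88 and 0.82 CPM in injured replicates 1, 2 and 3. In sham replicates 1, 2 and 3 it had 1.17, 2.90 and 2.38 CPM. Of the 6 tested myeloid rows, miR-142-5p and miR-155-5p were lower in every injured than in any sham library, against 4.87% of all tested miRNAs. The log2 fold changes of miR-142-5p and miR-155-5p were -0.25 and -0.48. No row of these 3 lists was at 0 in all libraries, 0 were called, and their part in the values of the family was not tested.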

How the data were processed

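Total RNA of 6 samples was made into small RNA libraries by ligation and gel selection, per the labels' protocols. Reads were processed with Bowtie against rn6, per the submitters' processing notes. For the counter, annotation release, multiply mapping reads and read filters: not given in the sources used here. Raw read counts and TPM values for 842 rows were deposited by the authors, and the deposited TPM values equalled each count divided by its column total, scaled to 1000000, to within 4.66e-10. All tests used the counts.

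Fits used edgeR 4.0.16 (quasi-likelihood F-test, TMM, filterByExpr with a minimum count of 10 and minimum total of 15) in R 4.3.3, with Benjamini-Hochberg adjustment over the 534 miRNAs kept, and limma 3.58.1 for the arms, as log2 of 5p over 3p counts (pseudocount 0.5, mean count of at least 10 on each arm). Standard errors were derived as the absolute log2 fold change over the square root of F. The procedures were tested on simulated counts. Alternatives covered scaling, filter, DESeq2 1.42.0, limma-voom, 1 row per pair of names with counts within 1% (26 pairs, no family row among them), the pseudocount, and leaving out libraries.

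Members and lists were chosen with earlier results of these data known. Named were all family rows, the related-seed and marker lists, the 5 miRNAs most correlated with the summed 5p strands and the 1 closest to each 5p strand. Replicate numbers follow accession order and pair nothing. The labels give biological replicates and no batch. Sequences are from RefSeq (GRCr8).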

Additional observations from a re-analysis of the deposited data

How the results depend on the processing

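The number of miRNAs called was 0 with each scaling, filter and tool and without each library, so the fits limit what can be said to descriptions: a 95% interval extended a median of 0.56 on the log2 scale to each side of its estimate. Over the scaling, filter and tool alternatives, the log2 fold change ranged from -0.68 to -0.46 for miR-15b-5p, from -0.75 to -0.52 for miR-195-5p, from -0.56 to -0.32 for miR-16-5p and from 0.31 to 0.51 for miR-195-3p. With 1 library fewer the ranges were -0.68 to -0.38, -0.78 to -0.36, -0.62 to -0.18 and 0.18 to 0.52, and miR-322-5p ranged from -0.25 to 0.11 and miR-15b-3p from -0.23 to 0.39. The smallest adjusted p of any member in any of these fits was 0.663. Of the 14 alternatives, the sign changed in 4 for miR-322-5p, 2 each for miR-15b-3p and miR-497-5p, and 1 each for miR-16-5p and miR-322-3p; miR-15b-5p, miR-195-5p and miR-195-3p kept theirs in all 14. Without sham replicate 3 and injured replicate 2 together, a setting added after seeing the data, the family's share of reads differed by 0.00106 percentage points and the log2 5p to 3p ratio of miR-195 by -0.36. With 1 library fewer, the share differed by -0.0353 to -0.00619 percentage points and the log2 5p to 3p ratios by -1.25 to -0.55 for miR-195 and -1.18 to -0.42 for miR-15b. The log2 ratio of miR-195-5p to miR-497-5p differed by -0.63 to -0.36, and that of miR-15b-5p to miR-16-5p by -0.24 to -0.01. With a minimum mean count of 50 on each arm, miR-15b was no longer among the hairpins fitted. The cause of these shifts was not tested. No paired analysis was possible because the labels give no replicate numbers or pairing.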
